A study of Mus musculus with 6 samples.

Results

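The nuclear genes of the mitochondrial respiratory chain and of the mitochondrial ribosome were described by the accessibility of their promoters in mouse NIH/3T3 fibroblasts, a cell line from mouse embryos. Members were regions of the deposited table that were assigned to a protein-coding gene whose name starts with Nduf, Sdh, Uqcr, Cox4 to Cox8, Atp5, Mrpl or Mrps, and whose centre lay within 1000 bp of that gene's transcription start site (TSS). The rule used names and distances and no measured signal. It gave 128 of 63430 regions, and they belong to 127 genes. The respiratory chain had 71 regions of 71 genes, and the mitoribosome had 57 regions of 56 genes. A further 26 regions of genes with these names lay beyond 1000 bp and were not members. Among all regions, 10032 met the same distance rule for any protein-coding gene and are called coding promoters here.

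The assay was ATAC-seq, where Tn5 transposase cuts and tags DNA that is not covered by nucleosomes. All 6 libraries came from cells with Cas13d, a CRISPR enzyme that cuts RNA, knocked into the genome and a transfected guide RNA: 3 libraries had a guide against the mRNA of Actg1 (cytoplasmic gamma-actin), and 3 had a guide against GFP as control. Each was made from 25000 cells with 30 min of transposition at 37 °C and paired-end sequencing. The stated purpose was to learn what mRNA degradation contributes to transcriptional adaptation, and accessibility with the Actg1 guide was to be set against that with the GFP guide. The design speaks of biological replicates, and the labels say neither whether the libraries came from separate cultures nor whether the line is 1 clone, so p-values measure only the spread between these samples.

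Values are the authors' normalised and rounded read counts per region, called signal here. Replicates 1 and 2 of the GFP guide did not differ beyond the noise of sampling: their chi-square, divided by the 59697 regions compared, was 1.004, where counting error alone gives about 1, against 1.03 to 1.12 for the other pairs within groups. They were counted as 1 sample, which left 2 GFP guide and 3 Actg1 guide samples. Estimated reads in regions ranged from 5675571 to 9525330 per library. The targeted gene could not be used to check the labels, because 0 regions carried the name Actg1 and ATAC-seq does not measure mRNA. Of 14 fibroblast marker genes, 9 had a promoter region, and the libraries' sums over them were 3746 to 3855 with the GFP guide and 3352 to 3472 with the Actg1 guide. Pdgfra, Thy1, Lum, Dcn and Fap had none. These sums join opposite changes. In the limma test given below, 1 of the 12 fibroblast marker regions was higher and 5 were lower. That is 50% called, beside 31.2% of coding promoters. The extremes were a Col1a1 region at a log2 fold change of 0.70 and an S100a4 region at -1.30. Epithelial markers had a promoter region for 2 of 8 genes, skeletal muscle markers for 1 of 7 and endothelial markers for 0 of 6. Haematopoietic markers had one for 2 of 8 genes, with sums of 49 to 61 and 96 to 115, nearly all from Cd68. The part of these markers in the results was not tested.

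The respiratory chain passes electrons from NADH and succinate through complexes I to IV to oxygen and pumps protons across the inner mitochondrial membrane, and complex V uses the proton gradient to make ATP. Most subunits are encoded in the nucleus and imported, while a few core subunits are encoded in mitochondrial DNA and made inside the organelle by the mitoribosome, whose proteins are all nuclear. Promoters of these nuclear genes are known for sites of NRF1, of the ETS factor GABP and of YY1, and most are CpG-rich promoters that are open in many cell types. Subunits encoded in mitochondrial DNA are not among the members.

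Promoter sequences were taken from RefSeq (GRCm38.p6), in windows from 250 bases before to 50 bases after a start, and 111 of the 128 member regions matched a window by symbol or synonym. The stretches printed here show members with firm rises from both groups and a fall from each, with and without a motif. They run 5′ to 3′ on the gene's strand, from 150 bases before the start to 30 bases after it (33 for Ndufs7), and all bases lie inside the member region. Capitals mark a match to CCGGAAG (ETS/GABP core), GCGCATGCG (NRF1) or AAGATGGCG (YY1) on either strand. Ndufb10, an accessory subunit of complex I, lies on the minus strand at chr17:24724394-24724573. Ndufs7, an iron-sulfur core subunit of complex I, lies on the plus strand at chr10:80249299-80249481. Mrpl51 (plus strand, chr6:125192050-125192229), Mrpl10 (plus strand, chr11:97041432-97041611) and Mrpl17 (minus strand, chr7:105811058-105811237) encode proteins of the large mitoribosomal subunit. Cox7c, a small nuclear subunit of complex IV, lies on the minus strand at chr13:86046766-86046945.
Ndufb10: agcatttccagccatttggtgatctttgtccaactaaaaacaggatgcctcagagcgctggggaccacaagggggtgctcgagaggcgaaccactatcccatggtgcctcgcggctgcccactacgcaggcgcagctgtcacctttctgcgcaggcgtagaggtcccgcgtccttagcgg
Ndufs7: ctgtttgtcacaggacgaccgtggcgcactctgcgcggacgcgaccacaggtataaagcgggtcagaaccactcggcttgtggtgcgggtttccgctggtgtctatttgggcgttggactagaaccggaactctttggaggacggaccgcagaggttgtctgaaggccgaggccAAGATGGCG
Mrpl51: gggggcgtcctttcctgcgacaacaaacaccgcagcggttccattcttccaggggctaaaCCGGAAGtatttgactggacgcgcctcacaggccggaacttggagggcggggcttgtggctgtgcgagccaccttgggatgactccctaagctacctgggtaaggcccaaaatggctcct
Mrpl10: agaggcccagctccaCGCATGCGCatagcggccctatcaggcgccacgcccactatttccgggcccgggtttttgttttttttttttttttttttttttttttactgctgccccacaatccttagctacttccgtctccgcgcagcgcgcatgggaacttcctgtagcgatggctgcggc
Mrpl17: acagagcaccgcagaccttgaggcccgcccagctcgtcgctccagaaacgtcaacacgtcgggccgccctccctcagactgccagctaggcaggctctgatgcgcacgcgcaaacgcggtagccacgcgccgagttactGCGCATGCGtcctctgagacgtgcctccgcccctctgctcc
Cox7c: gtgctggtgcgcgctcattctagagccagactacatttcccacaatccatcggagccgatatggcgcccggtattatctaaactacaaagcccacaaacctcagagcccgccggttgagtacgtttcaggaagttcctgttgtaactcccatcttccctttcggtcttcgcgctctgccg
The capitals in Ndufs7 begin 24 bases after the start, in a YY1 match. Those in Mrpl51 begin 90 bases before the start, in an ETS/GABP match. The NRF1 matches begin 135 bases before the start in Mrpl10 and 11 bases before it in Mrpl17. The windows of Ndufb10 and Cox7c hold none of these 3 motifs. A match is a description of letters and shows no binding.

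Across the 111 matched members, NRF1 and YY1 letters were found at higher shares than in the 7936 coding promoters that matched a window. NRF1 was found in 13.5% of member windows against 4.01% of coding promoters. YY1 was found in 9.91% against 3.39%, and ETS/GABP in 27.9% against 18.6%. The GGGCGG box of SP and KLF factors was less common, at 45.9% against 68.2%, and the median GC content was 58.3% against 61.7%. CCAAT (NF-Y) was at 41.4% against 39.3%, TGACGTCA (CREB/ATF) at 4.5% against 3.52% and TCGCGAGA (BANP) at 3.6% against 2.43%. All motifs were searched on both strands, and matches of different motifs may overlap. No test was made of these shares. Of the 111 windows 86 lay wholly inside their member region. Those of Atp5f1d, Atp5mc2 (with an NRF1 match), Mrpl36 (with a YY1 match) and the Mrpl20 region at 728 bp had 0 bases inside it. Both Mrpl20 regions matched the same window, which was counted for each.

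The members differed among themselves in these letters. ETS/GABP was in 24.6% of 61 respiratory chain windows and in 32% of 50 mitoribosome windows, and NRF1 was in 16.4% and 10%. All 5 mitoribosomal NRF1 matches were in the large subunit, and 0 of 20 small subunit windows had one. Complex I had ETS/GABP in 5 of 35 windows and YY1 in 5 of 35. The position of YY1 was narrow: in 9 of 11 member windows with a match, which is 81.8%, it began 10 to 35 bases after the start on the gene's own strand, against 46.9% of the 258 distinct windows with a match among coding promoters (269 regions, some of which share a window). That position range was set after the positions were seen.

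**Figure D1:**
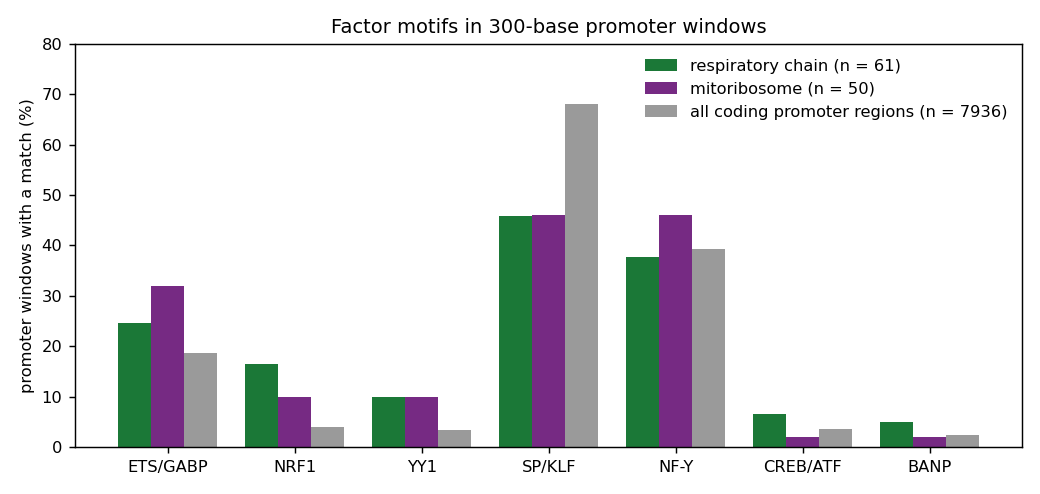
Percentage of 300-base promoter windows with at least 1 match to each motif, on the y axis, for 7 motifs on the x axis. Bars stand for respiratory chain members (n = 61), mitoribosome members (n = 50) and all coding promoters with a window (n = 7936); the NRF1 bars are at 16.4%, 10% and 4.01%, and the SP/KLF bars at 45.9%, 46.0% and 68.2%.

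Member promoters were open in every library but carried less signal than coding promoters as a whole. The mean signal over the 6 libraries ranged from 22.7 to 1034, with a median of 206 against 272 for coding promoters. Per kb of region the medians were 257.6 and 308, and 46 of the 128 members lay above the coding promoter median. The respiratory chain had a median of 262.7 per kb and the mitoribosome 253.7. The highest signal in complex I was at Ndufa11, a membrane-arm accessory subunit, at 1034 in a region of 1522 bp (679 per kb), and the lowest was at the assembly factor Ndufaf1, at 63.2 (107 per kb). In the large subunit the extremes were Mrpl18 at 954.8 (961 per kb) and the region of Mrpl20 that is centred 45 bp from the TSS, at 22.7 (73.6 per kb). In the small subunit they were Mrps16 at 602 (892 per kb) and Mrps10 at 113 (229 per kb). By signal per region, the lowest and highest were Sdhaf4 at 113 and Sdhb at 351 in complex II, Uqcr11 at 118 and Uqcrfs1 at 220.5 in complex III, and Cox6c at 38.5 and Cox8a at 490 in complex IV. Per kb these were 249 and 447, 148 and 352, and 67.7 and 579.6, and the lowest per kb in complex II was Sdha at 207. In complex V the lowest and highest by signal were Atp5mc2 at 59.5 and Atp5pf at 564, which per kb were 262 and 358.

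With the Actg1 guide, 17 member promoters were higher, 11 were lower and 100 did not pass, so 21.9% were called (limma, Benjamini-Hochberg adjusted p under 0.05 over 61327 regions tested, all 128 members among them). The same test called 41.3% of all regions, 20.6% higher and 20.7% lower. Of 9954 coding promoters tested it called 31.2%, 12.9% higher and 18.3% lower. The members' share was thus below both backgrounds, and the share higher, 13.3%, lay near that of coding promoters. Changes were small: the log2 fold change of log2(signal + 1) had a median of 0.04 and ranged from -0.46 to 0.74, beside medians of -0.02 for coding promoters and -0.01 for all regions. A call and a change of at least 1.5-fold came together in 2 members, and 0 were called with 2-fold. The 3 Actg1 guide values all lay above or all below the 3 GFP guide values in 46 members, 30 above and 16 below, which is 35.9% against 42.8% of coding promoters and 50.8% of all regions.

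The calls were not spread evenly between the groups. Of 71 respiratory chain promoters 5 were higher and 4 lower, a share of 12.7%, with a median log2 fold change of 0.05 and 45 values above 0. Of 57 mitoribosome promoters 12 were higher and 7 lower, a share of 33.3%, which lies near the 31.2% of coding promoters, with a median of 0.01 and 29 values above 0. The difference between these shares was not tested, and it was smaller under some alternatives: the respiratory chain had 11 higher and 4 lower after cyclic loess scaling, beside 11 and 5 in the mitoribosome. With the 6 libraries as separate samples the numbers were 9 and 6 beside 11 and 8, and with a replicate block 10 and 6 beside 12 and 8. Promoters of cytosolic ribosomal proteins, the counterparts outside the mitochondrion, had 7 higher and 11 lower of 67 and a median of -0.01. Among the 64 members between the quartiles of member signal (143.5 and 297.5) 20.3% were called, against 27.4% of 2837 other coding promoters of that range. Of the fits that left out a library, the one without GFP guide replicate 3 had the fewest calls among members and among all regions. Replicates 1 and 2 were averaged, so that fit had 1 GFP guide sample, assumed to vary like the others. Every other such fit kept more than 1 sample in each group. A call that ended without GFP guide replicate 3 is therefore not shown to depend on that library. In that fit the log2 fold changes of the 28 called members kept their sign. Their median ratio to those with all libraries was 0.86. Without Actg1 guide replicate 2, 14 members were higher and 6 lower, and all regions had 10887 higher and 11246 lower. Without the mean-variance trend limma kept 8 of the 28 calls. All regions then had 9221 higher and 8120 lower, against 12642 and 12681 with the trend.

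**Figure D2:**
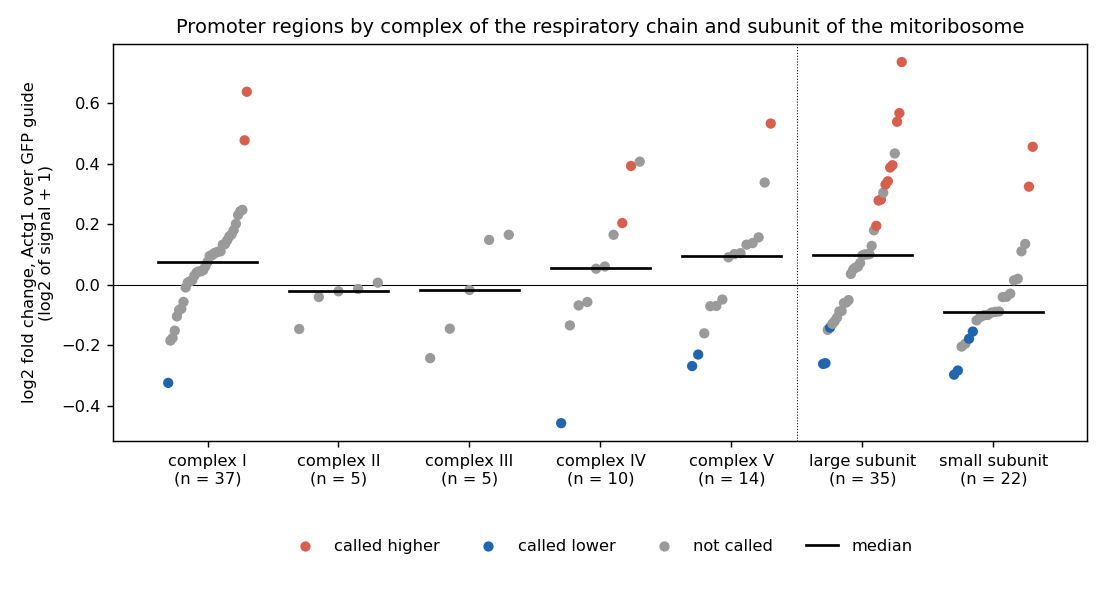
Log2 fold change of each member promoter (Actg1 guide over GFP guide, limma on log2(signal + 1)) on the y axis, by complex and ribosomal subunit on the x axis; each point is 1 region, coloured by its call, and black bars are class medians. Most grey points lie within 0.25 of 0, the large subunit holds 10 of the 17 called higher, and the medians of the large and small subunit are 0.10 and -0.09.

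Complex I takes electrons from NADH and is the largest complex of the chain. Of its 37 promoters 2 were higher, 1 was lower and 34 did not pass, with a median log2 fold change of 0.08 and 28 values above 0. Ndufb10 had signals of 200, 180 and 168 in GFP guide replicates 1 to 3 and of 282, 281 and 273 in Actg1 guide replicates 1 to 3. The groups did not overlap, and the region (chromosome 17, 24723797 to 24724584, centred 287 bp from the TSS) rose 1.56-fold from 179 ± 15.6 (SD, n = 2) to 279 ± 4.93 (SD, n = 3), a log2 change of 0.64 (SE 0.088, limma adjusted p = 1.36e-07). It was the strongest rise in the respiratory chain.

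Ndufs7, whose protein carries an iron-sulfur cluster near the ubiquinone site, had 300, 354 and 324 with the GFP guide and 447, 464 and 450 with the Actg1 guide. Every Actg1 guide value was above every GFP guide value, and the log2 fold change was 0.48 (SE 0.068, limma adjusted p = 2.59e-07). The other 4 core subunits, Ndufs1, Ndufs8, Ndufv1 and Ndufv2, did not pass, with log2 fold changes between 0.06 and 0.20. Of 24 accessory subunits 1 rose and 1 fell, with a median of 0.05. The fall was Ndufab1, the mitochondrial acyl carrier protein, which had 234, 218 and 240 against 199, 161 and 200, a log2 change of -0.32 (SE 0.0984, limma adjusted p = 0.0069). Its groups did not overlap, but the call ended if GFP guide replicate 3 was left out (limma adjusted p = 0.193), and likewise for Actg1 guide replicate 2 (limma adjusted p = 0.0622). Of the 8 assembly factors 0 passed in limma (1 at an unadjusted p of 0.05), and their values lay between -0.15 and 0.18. Ndufa4, a protein now counted to complex IV, had -0.18 (limma adjusted p = 0.0675).

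Complex II (succinate dehydrogenase) and complex III (the cytochrome bc1 complex) had 5 promoters each, and 0 of the 10 passed limma at an adjusted p of 0.05. The log2 changes of complex II ranged from -0.15 at Sdhc, a membrane anchor, to 0.01 at Sdha, the flavoprotein. Those of complex III ranged from -0.24 at Uqcrb to 0.17 at Uqcr11. At an unadjusted p of 0.05 the number was 0 of 5 in complex II and 1 of 5 in complex III. Their signals summed over promoters were 1098 to 1135 and 862 to 969 with the GFP guide and 1049 to 1100 and 895 to 897 with the Actg1 guide, so both classes overlapped between the groups.

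Complex IV, cytochrome c oxidase, had 2 higher and 1 lower of 10, with a median of 0.06. Cox6a1, the widely expressed isoform of a regulatory subunit, had 189, 207 and 166 against 224, 238 and 254, without overlap, and a log2 change of 0.39 (SE 0.0947, limma adjusted p = 8.07e-04). Cox5a had 246, 253 and 240 against 307, 281 and 260, without overlap, and 0.20 (SE 0.0846, limma adjusted p = 0.049). Cox7c fell from 202, 219 and 226 to 151, 177 and 149. It was the strongest fall among the members, with no overlap, a log2 change of -0.46 (SE 0.101) and a limma adjusted p of 2.9e-04. Without GFP guide replicate 3 the limma adjusted p was 0.121 for Cox6a1, 0.298 for Cox5a and 0.0608 for Cox7c. Cox5a also ended without GFP guide replicate 1 (limma adjusted p = 0.076) and without Actg1 guide replicates 1 (0.221) and 2 (0.0961). Cox6c, with the lowest signal of the complex, had 40, 41 and 24 against 40, 49 and 37 and did not pass (0.41, limma adjusted p = 0.137). The row named Cox5b-ps, typed as protein-coding in the table, holds the RefSeq start of Cox5b and had -0.07 (limma adjusted p = 0.622).

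Complex V, the ATP synthase, had 1 higher and 2 lower of 14, with a median of 0.10. The row named Atp5f1d, for a subunit of the central stalk that is grouped here with the F1 head, had 73, 79 and 63 against 106, 100 and 96, without overlap, and a log2 change of 0.53 (SE 0.139, limma adjusted p = 0.00186). That region is centred 650 bp from the TSS, holds the RefSeq start of Cbarp and does not hold that of Atp5f1d. Atp5f1e, the epsilon subunit, had 330, 279 and 352 against 277, 250 and 289, with overlapping groups, and -0.27 (SE 0.083, limma adjusted p = 0.00795). Atp5pf, coupling factor 6 of the peripheral stalk, had 571, 642 and 611 against 549, 472 and 538, without overlap, and -0.23 (SE 0.0628, limma adjusted p = 0.00274). The region of Atp5pf also holds the start of Gabpa, the DNA-binding subunit of GABP, so its fall cannot be given to 1 of the genes. Without GFP guide replicate 3 these calls ended, with limma adjusted p of 0.101, 0.312 and 0.11. The call of Atp5f1e also ended without GFP guide replicate 1 (limma adjusted p = 0.065) and without Actg1 guide replicate 2 (0.0688).

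**Figure D3:**
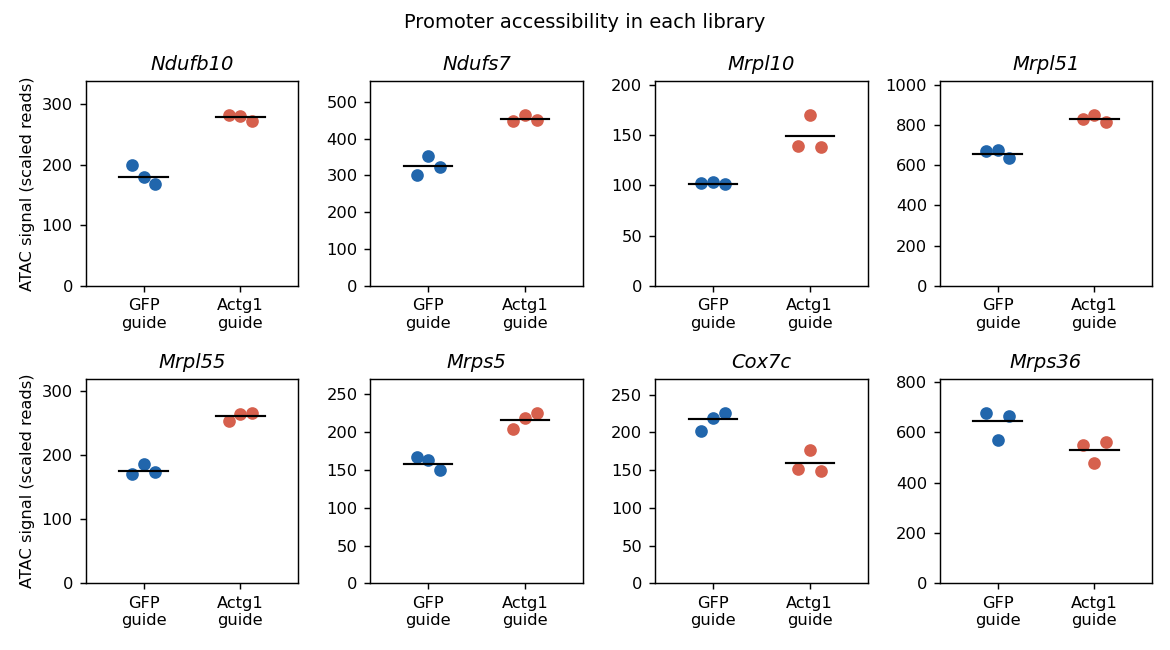
Signal (scaled reads, y axis from 0) of 8 promoters in each library, with GFP guide libraries in blue and Actg1 guide libraries in red, replicates 1 to 3 from left to right; black lines are group means, with GFP guide replicates 1 and 2 counted as 1 sample. The groups do not overlap in any panel: 6 promoters were higher with the Actg1 guide, and Cox7c and Mrps36 were lower.

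The large subunit of the mitoribosome, which holds the peptidyl transferase centre, had most of the rises. Of its 35 regions 10 were higher and 3 lower, with a median of 0.10 and 23 values above 0. These shares are 28.6% and 8.57%, beside 12.9% and 18.3% of coding promoters, and the difference was not tested. Of the 10 rises 5 lay on chromosome 11, where 24.5% of coding promoters were higher. Mrpl55 had 171, 186 and 173 with the GFP guide and 253, 264 and 266 with the Actg1 guide, without overlap. Its log2 fold change was 0.57 (SE 0.0884, limma adjusted p = 1.44e-06). Mrpl10, a protein at the base of the stalk that meets translation factors, had 102, 103 and 101 against 139, 170 and 138, without overlap, and 0.54 (SE 0.118, limma adjusted p = 2.73e-04). Mrpl51 had the highest signal of these, at 670, 677 and 638 against 830, 850 and 814. Its change was 1.27-fold and the groups were far apart (log2 fold change 0.34, SE 0.0518, limma adjusted p = 8.56e-07). The region of Mrpl51 also holds the start of Ncapd2, a condensin subunit, so its signal belongs to both genes.

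Mrpl20 had 2 member regions. The region centred 45 bp from the TSS had 16, 17 and 16 against 42, 23 and 22, the largest log2 fold change of all members (0.74, SE 0.281, limma adjusted p = 0.032) at a signal near the minimum for testing. Actg1 guide replicate 1 was far above the other two, and the call ended without it (limma adjusted p = 0.25), without GFP guide replicate 3 (0.225) and after cyclic loess scaling (0.0502). The region centred 728 bp from the TSS had 154, 156 and 182 against 169, 162 and 153, with overlapping groups and -0.06. The regions of this gene thus gave no common direction.

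The further large subunit rises were Mrpl4 (log2 fold change 0.40), Mrpl45 (0.39), Mrpl38 (0.33), Mrpl11 (0.28), Mrpl22 (0.28) and Mrpl14 (0.19). Mrpl11 was the only one of these 6 whose groups overlapped, with 127, 155 and 113 against 151, 154 and 156. Their limma adjusted p ranged from 3.1e-04 at Mrpl38 to 0.0408 at Mrpl11, and all 6 calls ended without GFP guide replicate 3, where they ranged from 0.0679 to 0.524. The calls of Mrpl11 and Mrpl22 ended without either Actg1 guide replicate 1 or 2 as well, at 0.0664 to 0.091. That of Mrpl11 also ended when GFP guide replicate 1 was left out (0.161), and when Actg1 guide replicate 3 was (0.0977). The region of Mrpl14 also holds the start of Tmem63b.

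The 3 falls of the large subunit were small. Mrpl39 had 266, 247 and 263 against 231, 208 and 211, without overlap, and -0.26 (SE 0.0877, limma adjusted p = 0.0144). Mrpl17, whose sequence with its NRF1 match is printed above, had 431, 434 and 472 against 392, 352 and 389, without overlap, and -0.26 (SE 0.0703, limma adjusted p = 0.00262). Mrpl18 had 958, 1021 and 1019 against 897, 903 and 931, and -0.14 (SE 0.0466, limma adjusted p = 0.0128). The groups of Mrpl18 did not overlap, and its region also holds the start of Tcp1, a chaperonin subunit. Without GFP guide replicate 3 the limma adjusted p was 0.148 for Mrpl39, 0.156 for Mrpl17 and 0.152 for Mrpl18, and cyclic loess ended the call of Mrpl18 (0.081).

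The small subunit, which decodes the mRNA, had 2 higher and 4 lower of 22, with a median of -0.09 and 16 values below 0. Mrps5 had 167, 163 and 149 against 204, 218 and 225, without overlap, and rose by a log2 change of 0.46 (SE 0.0967, limma adjusted p = 1.75e-04). Its region also holds the start of Zfp661. Mrps10 had 109, 109 and 88 against 117, 151 and 105, with overlap, and 0.32 (limma adjusted p = 0.0495), a call that ended without any of 5 libraries (0.0573 to 0.577) but not without Actg1 guide replicate 3. It also ended with no signal filter (0.0521) and with the 6 libraries as separate samples (0.0563), as did that of Mrpl11 in the latter (0.0618). Mrps36 had 677, 569 and 663 against 548, 479 and 560, without overlap, and -0.28 (SE 0.063, limma adjusted p = 3.1e-04). Despite its name, Mrps36 is known as a part of the 2-oxoglutarate dehydrogenase complex.

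Mrps15 had 251, 284 and 290 against 211, 203 and 271, with overlap, and -0.30 (SE 0.0956, limma adjusted p = 0.0107). Mrps16 had 652, 601 and 657 against 595, 522 and 586, without overlap, and -0.18 (SE 0.0604, limma adjusted p = 0.0153). Mrps28 had 614, 642 and 629 against 614, 521 and 562, with overlap, and -0.15 (SE 0.0613, limma adjusted p = 0.0388). All 3 calls, and that of Mrps36, ended without GFP guide replicate 3 (limma adjusted p from 0.0961 to 0.302). Without Actg1 guide replicate 2, Mrps15, Mrps16 and Mrps28 ended as well (0.106 to 0.217). Mrps15 also ended without Actg1 guide replicate 1 (0.124), Mrps16 without GFP guide replicate 1 (0.0577), and Mrps28 without GFP guide replicate 2 (0.0762) and when Actg1 guide replicate 3 was left out (0.12). Cyclic loess (0.111) and centring on the promoter median (0.0593) ended the call of Mrps28 as well.

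The calls that held without each of the 6 libraries in turn were those of Ndufb10, Ndufs7, Mrpl10, Mrpl51, Mrpl55 and Mrps5. All of these were rises, and no fall held throughout. The fit without GFP guide replicate 3 set this limit, and it had too few GFP guide samples to show which calls depend on that library. In that fit the called rises and falls all kept their sign. The same rule was not applied to all regions, so whether a list of rises only is particular to the members was not tested.

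Signals summed over each class showed small shifts in both directions. Complex I summed to 9817, 10062 and 9865 in GFP guide replicates 1 to 3 and to 10717, 10523 and 10360 in Actg1 guide replicates 1 to 3, a ratio of 1.06. The large subunit summed to 8435, 8555 and 8291 against 9038, 8860 and 8809, also 1.06. The small subunit summed to 6229, 6166 and 6132 against 5842, 5653 and 5869, a ratio of 0.939. In these 3 classes the libraries of the groups did not overlap. Nor did they in the sum over all coding promoters, which was lower with the Actg1 guide. That sum was 3234825 to 3254386 with the GFP guide and 3150897 to 3230725 with the Actg1 guide. The small subunit sum was lower and the large subunit sum higher, so the sum over the mitoribosome was nearly the same, at a ratio of 1.01. The ratios of complexes II to V were 0.971, 0.986, 1.03 and 0.992, and that of all coding promoters was 0.981. Large regions weigh most in such sums, and no test was made of them.

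**Figure D4:**
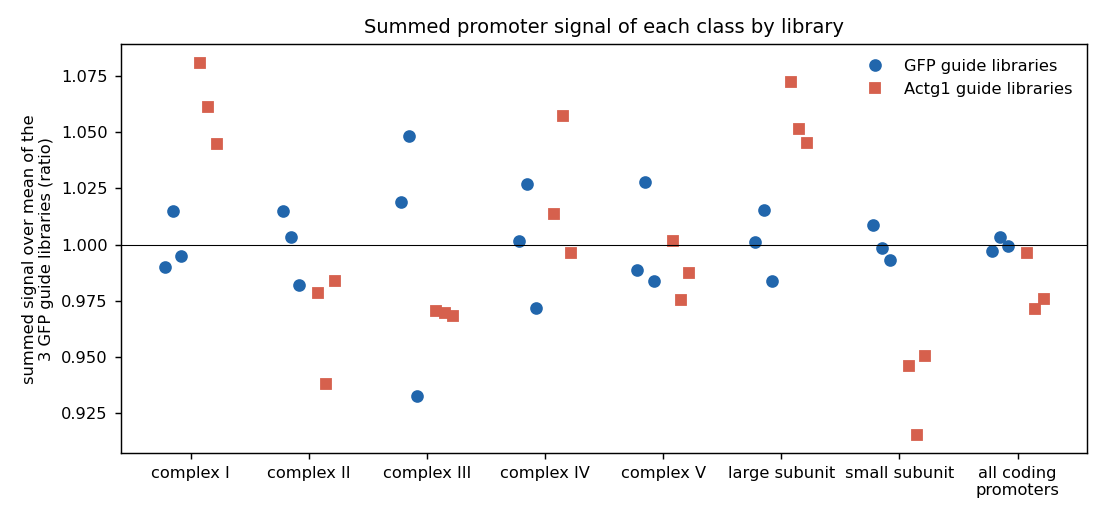
Summed signal of each class divided by the mean of the 3 GFP guide libraries (ratio, y axis not starting at 0), by class on the x axis; each point is 1 library, with circles for the GFP guide and squares for the Actg1 guide. The squares lie above the circles in complex I and the large subunit and below them in the small subunit and, narrowly, in all coding promoters.

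Calls of members were placed unevenly on the chromosomes, and so were those of coding promoters. Chromosome 11 held 10 members, and 5 of them were higher and 0 lower (Mrpl10, Mrpl22, Mrpl38, Mrpl45 and Mrpl55, all large subunit). Of 837 coding promoters on that chromosome 24.5% were higher and 7.29% lower, with a median log2 fold change of 0.09. Chromosome 17, with 3 higher and 1 lower of 10 members, had 25.8% of its coding promoters higher and 12.6% lower. Chromosome 19, with 1 higher of 7 members, had 26.7% higher and 5.75% lower. Chromosome 1 had 0 calls among 9 members, while 4.09% of its coding promoters were higher and 25.8% lower. An alternative chosen after seeing the data centred each chromosome, in each library, on the median of its coding promoters. It gave 15 higher and 12 lower members. The respiratory chain then had 8 higher and 4 lower of 71, and the mitoribosome 7 higher and 8 lower of 57. The calls of Mrpl11, Mrpl14, Mrpl22, Mrpl45, Mrps10, Mrps28 and Cox5a ended, and those of Mrpl10, Mrpl38 and Mrpl55 did not. What sets the chromosomes apart was not tested.

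**Figure D5:**
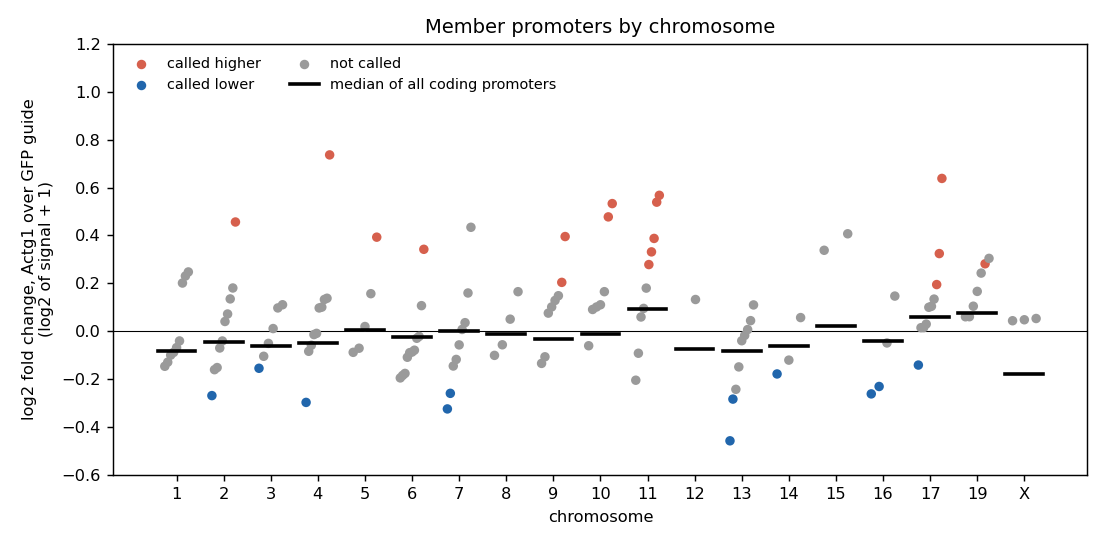
Log2 fold change of each member promoter (y axis) by chromosome (x axis), coloured by call; black bars are medians of all coding promoters on that chromosome. Chromosome 11 has 5 members called higher and a bar at 0.09, and chromosome X has its bar at -0.18 with 3 members near 0.05.

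Calls were found among members with and without the letters of 5 of the 7 motifs, while 0 of 5 members with CREB/ATF and 0 of 4 with BANP were called. Members with NRF1 letters had 3 higher and 2 lower of 15, with a median log2 fold change of 0.15, and the 96 without had 12 higher and 8 lower, with 0.02. With ETS/GABP 3 rose and 3 fell of 31, and with YY1 1 rose and 0 fell of 11. Members with the SP/KLF box had 6 higher and 8 lower of 51, and the 60 without had 9 higher and 2 lower. These members also differed in signal, with a median of 262 with the box and 161 without. Across members GC content and log2 fold change had a Spearman rho of -0.04 (n = 111 windows, which share libraries and depth), beside -0.07 over 7880 coding promoters. These are descriptions, and no test was made.

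A member region can serve more than 1 gene. Of the 128 regions 28 also hold the RefSeq start of another protein-coding gene, 18 in the respiratory chain and 10 in the mitoribosome, and 6 of these were called. The regions of Ndufb5 and Mrpl47 and of Mrps11 and Mrpl46 are shared between genes of these families. The region named Mrpl36 holds the RefSeq start of Ndufs6 and does not hold that of Mrpl36. RefSeq lists 178 protein-coding genes with these names, and 53 had no member region. A window was at hand for 41 of the 53, and 33 of their starts lay inside a region, 4 of them in a member region and 29 in others. Of those 29 starts 4 lay in regions that were higher and 4 in regions that were lower. Among all coding promoters 12.9% were higher and 18.3% lower. Singled out after their values were seen, the region named Sars2, which holds the start of Mrps12, had 0.39 (limma adjusted p = 1.06e-04), and that named Klc4, which holds the start of Mrpl2, had 0.34 (limma adjusted p = 4.4e-05). The region named Zfp189, with the start of Mrpl50, had -0.31 (limma adjusted p = 0.00114).

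Other genes of mitochondrial energy metabolism, from lists chosen by name, had calls in both directions. Their shares stand beside the 31.2% called among all coding promoters and were not tested. Assembly factors of the chain without these names had 3 higher and 4 lower of 31 promoter regions (22.6%). Their extremes were Uqcc2, for complex III assembly, at 0.68 in a region 994 bp from the TSS, and Atpaf1, for F1 assembly, at -0.45. The stronger region of Uqcc2, 57 bp from the TSS, did not pass (0.12, limma adjusted p = 0.326). Its mean signal was 255 against 70.3 in the region that rose. A list of cytochrome c and other chain components had 0 higher and 4 lower of 12 (33.3%). The falls were Gpd2, the mitochondrial glycerol-3-phosphate dehydrogenase, at -0.44 (limma adjusted p = 1.45e-05), a region of Sqor, sulfide-quinone oxidoreductase, at -0.30, Etfb, of the electron transfer flavoprotein, at -0.22 and Higd1a at -0.14. The last 3, named after their values were seen, did not pass without GFP guide replicate 3 (limma adjusted p 0.217, 0.283 and 0.344). Etfb and Higd1a also failed without Actg1 guide replicates 2 (0.0577 and 0.0832) and 3 (0.199 and 0.133), after cyclic loess (0.0726 and 0.123) and after promoter-median centring (0.0593 and 0.0526). Etfb failed without GFP guide replicate 2 (0.0949) and with chromosome centring (0.0583), and Higd1a without GFP guide replicate 1 (0.165). Cycs and Cyc1, the cytochromes themselves, had 0.03 and 0.04 and did not pass. Coenzyme Q synthesis had 1 and 1 of 10, a share of 20% (Coq4 0.31, Coq10b -0.17). Factors of mitochondrial transcription and translation had 3 higher and 7 lower of 27 (37%). Tefm, a transcription elongation factor, had the largest rise at 0.36, and Mtrf1, a release factor paralogue, the largest fall at -0.48. Mitoribosomal proteins without an Mrp name had 1 higher and 0 lower of 2, and the riser was Chchd1 at 0.34. Without GFP guide replicate 3 the calls of Uqcc2, Atpaf1, Coq4, Coq10b, Tefm, Mtrf1 and Chchd1 ended (limma adjusted p 0.0809 to 0.303). The calls of Atpaf1 (0.0575) and Mtrf1 (0.148) also ended without Actg1 guide replicate 1, those of Coq4 (0.0669) and Mtrf1 (0.119) without Actg1 guide replicate 2, and that of Mtrf1 (0.137) without GFP guide replicate 2. Centring by chromosome ended those of Tefm (0.117), Coq10b (0.132) and Mtrf1 (0.0656). Mtrf1 also ended after promoter-median centring (0.057) and with no signal filter (0.0507). Limma without a trend ended those of Atpaf1, Coq4, Coq10b, Mtrf1, Chchd1, Sqor, Etfb and Higd1a (adjusted p 0.0616 to 0.345).

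Nuclear regulators of these genes had 3 higher and 3 lower of 12 promoter regions, a share of 50% beside 31.2% of coding promoters, which was not tested. Nrf1, a transcription factor of many respiratory genes, had 297, 258 and 254 against 330, 347 and 319, without overlap, and 0.32 (SE 0.0784, limma adjusted p = 9.43e-04). Gabpb2, a partner subunit of GABP, rose at a weak region 883 bp from the TSS, with 39, 36 and 21 against 71, 66 and 55 and a log2 change of 1.15 (limma adjusted p = 1.25e-05), while its region at 274 bp did not pass (0.14, limma adjusted p = 0.119). Esrra, an orphan nuclear receptor, had 0.14 (limma adjusted p = 0.0243), which was lost after centring by chromosome (limma adjusted p = 0.924). Yy1 was lower at -0.24 (SE 0.0536, limma adjusted p = 3.5e-04), with 779, 789 and 776 against 691, 645 and 647. Creb1 was lower at -0.22 and Sp1 at -0.09, and centring by chromosome ended both calls (0.0889 and 0.0884). That of Sp1 also ended after cyclic loess (-0.04, limma adjusted p = 0.37), after promoter-median centring (0.0875) and with a mean signal of at least 50 (0.0578). Gabpb1 (0.05), Hcfc1 (0.12), both regions of Myc (0.22 and 0.11) and Ppargc1b (-0.03) did not pass. Without GFP guide replicate 3 the calls of Nrf1 (limma adjusted p = 0.0777), Esrra (0.132) and Sp1 (0.134) ended. Those of Esrra and Sp1 also ended without Actg1 guide replicates 1 (0.0642 and 0.0658) or 3 (0.142 and 0.0517), that of Sp1 without GFP guide replicate 2 (0.257), and those of Creb1 (0.0593) and Sp1 (0.105) without Actg1 guide replicate 2. Limma without a trend ended the calls of Yy1 (adjusted p = 0.116), Nrf1 (0.0685), Esrra (0.328), Creb1 (0.184) and Sp1 (0.496). Accessibility of a factor's promoter is no measure of its protein.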

How the data were processed

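ATAC-seq signal per region was analysed for 3 GFP guide and 3 Actg1 guide libraries of NIH/3T3 cells. The submitters' processing notes name build mm10 and, without saying what each did, STAR 2.7.10a, DESeq, DESeq2 1.36.0, Picard 3.0.0, Trimmomatic 0.39 and featureCounts. What called and merged peaks, whether Tn5 offsets were applied, which annotation was used and how values were normalised is not given in the sources used here. Deposited by the authors was 1 signal value per region and library, which from the values is a read count scaled and rounded to whole numbers. Such scaling hides the depth. The value of 1 read was estimated from the spacing of the whole numbers, and the estimated reads served to compare replicates. The chi-square that compared replicates weighs counting error only. SEs and p-values come from limma's estimate of the spread between these samples.

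From the deposited signal, log2(signal + 1) was modelled in limma 3.58.1 (R 4.3.3) with eBayes and a trend, a scale that understates changes of low regions, for regions with at least 10 in at least 3 of 6 libraries. P-values were adjusted by Benjamini-Hochberg over 61327 regions and called under 0.05. GFP guide replicates 1 and 2 entered as their mean, so their own spread is missing from that group's SDs. The script was tested on simulated data. Each member was matched to the RefSeq window of its gene whose start was nearest to the region's centre. The members and gene lists were chosen with earlier results of these data known. Named genes were the 12 largest rises and falls among called members, the highest and lowest signal of each class, genes with 2 regions, the largest rise and fall of each other list, and all listed regulators. A further gene list is not reported here. Other called members, and examples said to be singled out, were added after their values were seen. Alternatives were pseudocount, signal filter, scaling, trend, separate libraries, replicate block, distance window and leaving out each library.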

Additional observations from a re-analysis of the deposited data

How the results depend on the processing

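All 28 called members kept the sign of their change under the alternatives tried, whether or not they still passed. Against 17 higher and 11 lower members, limma without a trend gave 7 and 1, with 3 and 1 in the respiratory chain and 4 and 0 in the mitoribosome. It kept 8 of the 28 calls. Leaving out each library gave 6 to 20 higher and 0 to 12 lower members, 2 to 9 and 0 to 5 in the respiratory chain and 4 to 11 and 0 to 7 in the mitoribosome, and the lowest counts were without GFP guide replicate 3. Respiratory chain rises, 5 as reported, were 11 after cyclic loess (members 22 higher and 9 lower), 9 after centring on the promoter median (21 and 10), 9 with the 6 libraries as separate samples (20 and 14) and 10 with a replicate block (22 and 14). Centring chromosome by chromosome, an alternative chosen after seeing the data, gave 8 respiratory and 7 mitoribosomal rises, and the mitoribosome then had 8 falls. With a mean signal of at least 50 the mitoribosomal median log2 fold change was -0.0296 instead of 0.0146, so its sign is not settled. Same-numbered libraries of the groups correlated in their deviations at only 0.014 to 0.025, and differently numbered ones at -0.0165 to -0.00034. Each correlated best with its own number, so whether the numbers weakly pair the samples is not settled. The fit reported here had no replicate block. All other alternatives left the counts within 1.5 times. Regions under a signal of about 30 give few reads, and small changes there were not detectable at this depth.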
